A study of Mus musculus with 12 samples.

Results

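The elements described are the MaLR copies of the mouse genome, read as polyadenylated RNA in tumours of the mouse melanoma cell line YUMM1.7. A MaLR copy is here a repeat row of the deposited table of repeats and genes whose family is LTR/ERVL-MaLR, and each row is 1 genomic copy with its subfamily, chromosome, start and end on mm10. There were 78210 such copies among 662466 copies of transposable elements in the table. CBA gave 3 of the 12 tumours, as did Balb/c-2, N2.1 and the starting passage F0, with the letters A to C naming different tumours of 1 passage. F0 tumours grew from YUMM1.7 cells put into syngeneic mice, and after a tumour was dissociated its cells were injected to give the following passage. The passages N2.1, Balb/c-2 and CBA are named as the labels name them, and the sources used here give neither age nor sex of the host mice. All 12 tumours trace back to 1 cell line, and the RNA came from whole tumour biopsies that also hold host cells. Of the melanocyte markers, Tyr, Dct and Mlana were at or near 0 in every tumour, with no more than 0.827, 7.44 and 2.80 normalised reads. Mitf, Pax3 and Pmel were measured in every tumour, Pmel with 12.5 to 59.6 normalised reads. Sox10 had 74.0, 178 and 9.96 in CBA tumours A to C, 4.96, 72.8 and 3.43 in Balb/c-2 tumours and 11.4, 14.3 and 4.52 in N2.1 tumours. In F0 tumours it had 1.11, 0.954 and 3.85 (limma adjusted p = 0.0623 for CBA against F0).

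MaLR elements are LTR retrotransposons that encode none of the enzymes they needed to move and are thought to have borrowed them from related ERVL elements. Their names fall into the MT and ORR1 groups, which belong to rodents, and the older MLT1 group, which is shared with other mammals. Most copies are single LTRs left by recombination, while names that end in -int mark the sequence between the LTRs. LTRs of the MT group are known in mouse oocytes as alternative promoters and first exons of genes. A copy inside an exon, by contrast, can be read out with its gene, so that its count and that of its gene may share reads.

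The sequences below show copies on which later results turn, written 5′ to 3′ on the transcribed strand from transcripts of GENCODE M21 on mm10 (GRCm38). The first, at chr1:134304614-134304817 on the minus strand, holds an annotated transcript start of Ppfia4 (liprin alpha 4, a scaffold protein of synapses) and its capitals run from that start to the end of the copy. It had no read in any CBA tumour.
Ppfia4 MTEa: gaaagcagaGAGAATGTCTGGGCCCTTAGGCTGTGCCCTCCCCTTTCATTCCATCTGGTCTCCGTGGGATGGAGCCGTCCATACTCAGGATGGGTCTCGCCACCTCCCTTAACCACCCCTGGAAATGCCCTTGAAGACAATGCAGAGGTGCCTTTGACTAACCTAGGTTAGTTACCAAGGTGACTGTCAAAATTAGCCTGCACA
The copy at chr17:13341665-13341799 on the minus strand lies within a noncoding exon of AC166110.3 and had its highest values in N2.1 tumours. Its capitals mark a match to TTCNNNGAA, the core of the gamma-activated site of interferon-induced genes.
AC166110.3 MTE2a: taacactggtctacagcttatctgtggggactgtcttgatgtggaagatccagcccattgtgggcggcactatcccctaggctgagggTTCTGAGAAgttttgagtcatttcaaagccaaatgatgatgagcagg
The copy at chr15:77052839-77053105 on the plus strand lies within a noncoding exon of Apol6, an apolipoprotein L gene. It holds neither that motif nor GAAANNGAA, the core of the interferon-stimulated response element.
Apol6 MLT1A: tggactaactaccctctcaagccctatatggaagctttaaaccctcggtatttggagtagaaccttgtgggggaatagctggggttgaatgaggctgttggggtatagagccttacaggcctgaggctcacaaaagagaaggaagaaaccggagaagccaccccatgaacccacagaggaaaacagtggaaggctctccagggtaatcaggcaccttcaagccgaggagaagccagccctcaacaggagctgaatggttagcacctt
The last pair are coding ends that an MTEa copy gives to H2-T10 and H2-T22, nonclassical MHC class I genes, at chr17:36117431-36117455 and chr17:36038751-36038775 on the minus strand. The capitals are the stop codon.
H2-T10 MTEa: tggcgagtctttactgtcacctTGA
H2-T22 MTEa: tggcgagtctttactgtcacctTGA
Both MTEa copies are 78 bases long and 100% identical, so reads within them could fall to either gene. The Ppfia4 and AC166110.3 copies were named by the rule given with the processing, and the others were chosen after their values were seen.

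The 12 libraries held 34721735 to 59404254 reads in the table, and values are the deposited normalised reads. The share of MaLR copies with at least 1 read was 22%, 9.01% and 16.3% in CBA tumours A to C, 40.3%, 31.6% and 9.10% in Balb/c-2 tumours, 17.3%, 21.2% and 15.6% in N2.1 tumours and 16.7%, 21% and 14.9% in F0 tumours. Balb/c-2 A and B therefore showed the most copies, and CBA B and Balb/c-2 C the fewest. Over the log2 values of the 2241 tested MaLR copies, CBA B and Balb/c-2 B had their best Pearson correlation with a tumour of another passage. Balb/c-2 B reached 0.82 with N2.1 B and at most 0.55 within its passage, and CBA B 0.80 with Balb/c-2 C and at most 0.68 within its passage. The best correlation of the other 10 tumours was within their passage, though nearly matched outside it for Balb/c-2 C (0.8027 within, 0.8025 outside) and N2.1 B (0.829 within, 0.822 outside). All F0 and N2.1 tumours and Balb/c-2 A were run on 1 flow cell (7 tumours), and Balb/c-2 B and C with the CBA tumours on another (5 tumours). Passage, host strain and flow cell cannot be told apart for CBA, and the flow cell could be separated from passage only through Balb/c-2 A.

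Only 5496 MaLR copies (7.03%) overlapped an exon, yet these gave 72.0% of the MaLR signal. A further 40883 (52.3%) lay in introns and 31831 (40.7%) outside genes. All transposable element copies together were placed much the same way, with 7.37% exonic, 57.4% intronic and 35.2% outside genes, and 70.7% of their signal was exonic. The share of MaLR signal from outside genes was 22.7% in Balb/c-2 A and 9.43% to 12.9% in the other tumours. The 5 most abundant copies made up 13.5% of the MaLR signal and the 20 most abundant 26.3%. Copies with -int in their name (12541) gave 27.1% of it and LTR-only copies (65669) gave 72.9%.

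**Figure D1:**
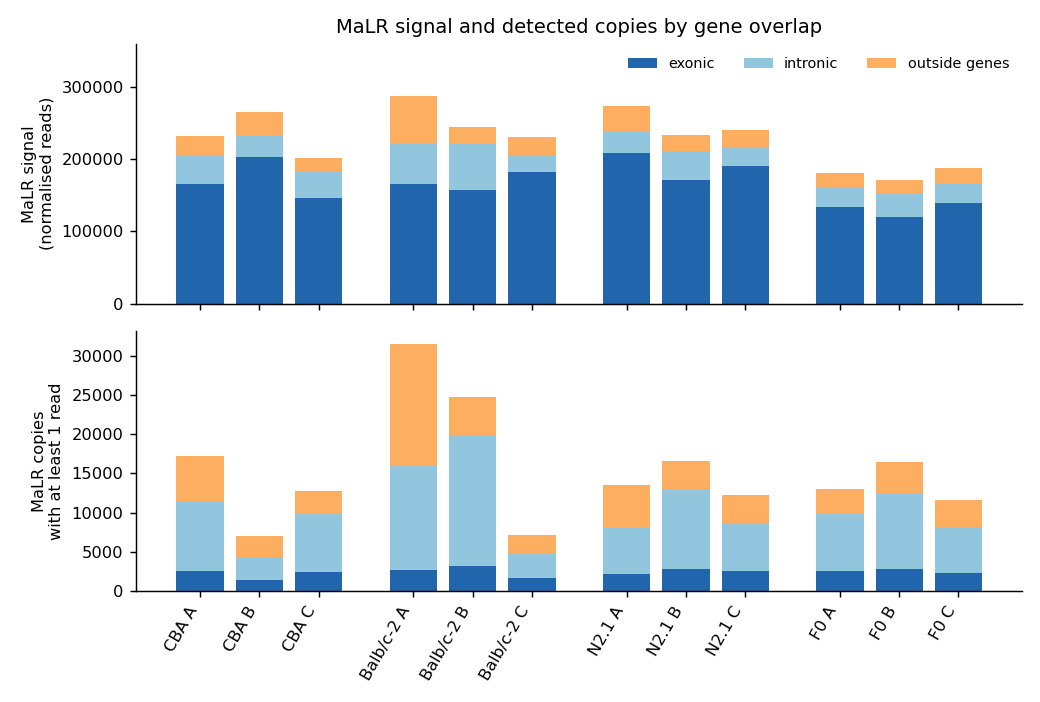
MaLR signal in normalised reads (top) and number of MaLR copies with at least 1 read (bottom) in each of the 12 tumours, split by overlap with genes. Exonic copies are a small part of the detected copies but the largest part of the signal in every tumour, and Balb/c-2 A has the largest part outside genes.

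By group of subfamilies, MLT1 (81 subfamilies, 11755 copies) and MTE (13 subfamilies, 9769 copies) gave most signal, with 20.1% each. ORR1B followed with 12.9% (7931 copies), ORR1A with 9.37% (8149), MTD with 8.36% (9412), MTA with 5.88% (3899) and ORR1D with 5.79% (6298). The remaining groups MTB, MTC, ORR1C, ORR1E, ORR1F and ORR1G gave 0.203% to 3.61% each.

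MaLR copies together took a similar part of all transposable element signal in the 4 passages. Their share was 10.7%, 11.7% and 10.4% in CBA tumours, 11.6%, 10.4% and 10.1% in Balb/c-2 tumours, 11.9%, 11.1% and 11.8% in N2.1 tumours and 10.6%, 10.1% and 10.4% in F0 tumours. N2.1 tumours were highest on average (11.6% ± 0.45, SD, n = 3) and F0 tumours lowest (10.4% ± 0.28, SD, n = 3), and those 2 groups did not overlap. Over the 4 passages the difference did not pass an exact permutation test over 15400 partitions of the tumours (p = 0.158). In the same exact test p was 0.0499 without Balb/c-2 A and 0.112 to 0.358 without any other 1 tumour. The order turned round when copies that overlap an exon were left out of both parts (exact permutation p = 0.325). The share was then 10.2%, 9.45% and 10.2% in N2.1 tumours and 11.4%, 11.1% and 11.6% in F0 tumours. Without the 20 most abundant MaLR copies the means were 8.16% in N2.1 and 8.49% in F0 tumours (exact permutation p = 0.502). As a share of all signal, genes included, MaLR copies took 0.517%, 0.500% and 0.470% in CBA tumours and 0.656%, 0.584% and 0.455% in Balb/c-2 tumours. That share was 0.558%, 0.483% and 0.510% in N2.1 tumours and 0.430%, 0.387% and 0.430% in F0 tumours. Every F0 tumour was thus under every other tumour, at p = 0.0587 in the same exact test over the 4 passages.

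The main question for single copies was which ones differed between passages. A copy was tested if it reached 10 normalised reads in at least 3 tumours, which 2241 of 78210 did (1166 exonic, 640 intronic, 435 outside genes), and called at a limma adjusted p under 0.05 over all 20277 tested transposable element copies. Against F0, CBA tumours had 17 MaLR copies higher and 10 lower, where 1.04% of all tested element copies were called (0.755% higher, 0.281% lower) and 1.2% of the MaLR copies. Balb/c-2 tumours had 13 higher and 7 lower, against a background of 0.789% (0.567% higher, 0.222% lower) and a MaLR share of 0.892%. N2.1 tumours had 39 higher and 9 lower, against a background of 1.68% (1.38% higher, 0.306% lower) and a MaLR share of 2.14%. MaLR copies were thus called about as often as other copies, and the median log2 change of all tested MaLR copies was 0.02, 0.01 and 0.03 in CBA, Balb/c-2 and N2.1 tumours. Values in bulk tumours do not tell fewer cells of a type from less RNA per cell.

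The counts moved with single tumours. The CBA count of 27 became 3 without CBA A, 8 without CBA C, 53 without Balb/c-2 B, 17 and 16 without N2.1 A and C, and 10, 10 and 12 without F0 A, B and C. It was 18 without CBA B. The Balb/c-2 count of 20 became 12 when Balb/c-2 A was left out, 97 when B was and 11 when C was, 11 without N2.1 C, and 8, 12 and 9 without F0 A, B and C. The N2.1 count of 48 became 77 without Balb/c-2 B, 7 without N2.1 A, 21 without its B and 13 without its C, and 25, 19 and 28 without F0 A, B and C. With the flow cell as a term the counts were 0, 1 and 41, so that no call of a single copy in CBA tumours and at most 1 in Balb/c-2 tumours against F0 held in that fit. With the letter A to C as a block the N2.1 count was 29, and the check of that pairing is given with the processing. The comparisons with F0 share the F0 tumours, so they are given side by side and not set against each other.

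Called copies by place were 8 exonic higher and 3 lower, 3 intronic each way, and 6 outside genes higher and 4 lower in CBA tumours. In Balb/c-2 tumours they were 4 and 1 exonic, 3 and 4 intronic, and 6 and 2 outside genes. In N2.1 tumours they were 21 and 4 exonic, 5 and 1 intronic, and 13 and 4 outside genes. The shares called of exonic, intronic and outside MaLR copies were 0.943%, 0.938% and 2.30% in CBA tumours, beside 0.808%, 0.779% and 2.33% of all element copies in the same places. In Balb/c-2 tumours they were 0.429%, 1.09% and 1.84%, beside 0.443%, 0.638% and 2.33%, and in N2.1 tumours 2.14%, 0.938% and 3.91%, beside 1.40%, 0.992% and 3.97%. Of the tested exonic MaLR copies 63.3% (738) touched a 3′ UTR, as did 68.7% (7908) of all tested exonic element copies. These MaLR copies held 19 of the exonic rises and 4 of the falls in N2.1 tumours, a called share of 3.12%, beside 1.48% of all element copies in 3′ UTRs. In CBA tumours the shares were 1.36% and 0.885%, and in Balb/c-2 tumours 0.678% and 0.430%. None of the 58 tested copies with an annotated transcript start was called in Balb/c-2 or N2.1 tumours, and 1 was in CBA tumours, beside 1.17%, 2.14% and 1.17% of all such element copies.

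The copies that rose included 6 MTE2b copies, each in the 3′ UTR of a guanylate-binding protein gene on chromosome 5. These genes encode GTPases that are induced by interferon gamma, in part through Irf1, and act against intracellular pathogens. Across the 11 Gbp genes lay 21 MaLR copies, of which 11 were tested, and the 6 MTE2b copies were the only called ones among them.

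The Gbp4 copy (chr5:105117701-105118066) had 7157, 7548 and 4831 normalised reads in CBA tumours, 2871, 8667 and 5684 in Balb/c-2 tumours, 9313, 8184 and 9258 in N2.1 tumours and 577, 55.3 and 690 in F0 tumours. Every CBA, Balb/c-2 and N2.1 tumour was above every F0 tumour. The log2 change from F0 was 4.50 (adjusted p = 0.0131) in CBA, 4.21 (adjusted p = 0.0177) in Balb/c-2 and 4.98 ± 0.74 (SE, adjusted p = 0.00564) in N2.1 tumours, beside 4.18, 3.69 and 5.01 for the gene itself.

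The Gbp10 copy (chr5:105216794-105217165) had 4997, 3095 and 3393 reads in CBA tumours, 1289, 3894 and 1707 in Balb/c-2 tumours, 6345, 5579 and 5618 in N2.1 tumours and 395, 77.3 and 460 in F0 tumours. Its log2 changes were 3.95 (adjusted p = 0.00575), 3.08 (0.0254) and 4.59 ± 0.58 (0.00183), while the gene was called in N2.1 tumours only (4.85, adjusted p = 0.0159). Gbp10 itself had fewer reads than the copy in every tumour, with means of 1656 in CBA, 1265 in Balb/c-2, 3662 in N2.1 and 133 in F0 tumours. The gene count thus cannot hold all reads of the copy. The copies in Gbp10 and Gbp6 are 99.5% identical, so their reads may have been exchanged. The Gbp6 copy (chr5:105272591-105272962) had 822, 457 and 664 reads in CBA tumours, 288, 1125 and 508 in Balb/c-2 tumours, 1041, 1044 and 1110 in N2.1 tumours and 265, 23.9 and 171 in F0 tumours. It was called in N2.1 tumours alone (log2 3.35 ± 0.71, adjusted p = 0.0296), and the groups did not overlap in any comparison with F0.

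The Gbp11 copy (chr5:105323206-105323569) had 1543, 1255 and 1011 reads in CBA tumours, 334, 595 and 498 in Balb/c-2 tumours, 845, 644 and 1137 in N2.1 tumours and 30.0, 2.86 and 82.9 in F0 tumours. Unlike the other 5 copies it had its highest mean in CBA tumours, at a log2 change of 5.86 ± 0.79 (adjusted p = 0.00332), with 4.43 (0.0198) in Balb/c-2 and 5.31 (0.00564) in N2.1 tumours. The Gbp8 copy (chr5:105014334-105014690) had 2749, 1874 and 2020 reads in CBA tumours, 722, 1650 and 636 in Balb/c-2 tumours, 3868, 2424 and 3539 in N2.1 tumours and 119, 7.63 and 218 in F0 tumours. Its log2 changes were 5.16 (adjusted p = 0.0154), 3.91 (0.0599, not called) and 5.72 ± 0.87 (0.00648). The Gbp9 copy (chr5:105079477-105079829) had the highest F0 level relative to the others, with 3336, 1891 and 2672 reads in CBA tumours, 982, 1819 and 1281 in Balb/c-2 tumours, 3134, 3231 and 2815 in N2.1 tumours and 662, 200 and 622 in F0 tumours. Its log2 changes were 2.55 (adjusted p = 0.0159), 1.60 (0.13, not called) and 2.81 ± 0.44 (0.00682).

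**Figure D2:**
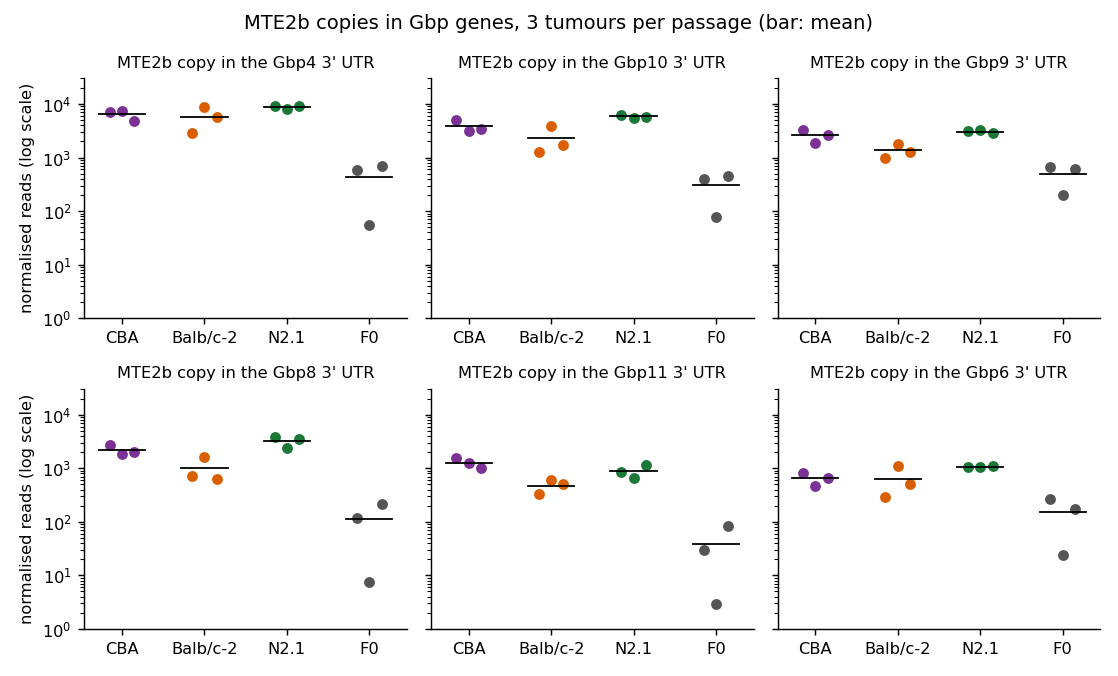
Normalised reads (log scale) of the 6 MTE2b copies in Gbp 3′ UTRs in each tumour, with a bar at the mean of each passage. CBA, Balb/c-2 and N2.1 tumours all lie above the F0 tumours for each copy, and F0 B is the lowest tumour in every panel.

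Some of these calls rested on 1 tumour. In N2.1 tumours the Gbp8 and Gbp9 calls were lost without N2.1 A (adjusted p = 0.0522 each), and that of Gbp6 without N2.1 A, B or C or F0 B (0.0619 to 0.134). In CBA tumours leaving out CBA A ended the calls of Gbp8, Gbp4, Gbp10 and Gbp9 (0.0533 to 0.107), and leaving out CBA C those of Gbp8 and Gbp9 (0.0581 and 0.0703). In Balb/c-2 tumours the Gbp4 call was lost without Balb/c-2 C (0.0693), the Gbp11 call without Balb/c-2 A or C or F0 A, and the Gbp10 call without Balb/c-2 A or C or N2.1 C (0.0503 to 0.0724). With edgeR on recovered reads none of the 3 Balb/c-2 calls passed (adjusted p = 0.0539 for Gbp4, 0.0757 for Gbp10 and 0.0787 for Gbp11), nor did the CBA calls of Gbp8 (0.0570) and Gbp9 (0.0565) or the N2.1 call of Gbp6 (0.0866). The Gbp6 call was also lost with the letter as a block (0.0713) and when scaled to library totals (0.0582). With the flow cell as a term every CBA and Balb/c-2 call of these copies against F0 was lost. The adjusted p was 0.549 to 0.809 in CBA and 0.285 to 0.399 in Balb/c-2 tumours. N2.1 and F0 tumours shared 1 flow cell.

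The 6 copies begin 139 to 258 bases after the stop codon and are 353 to 372 bases long. They are 81.3% to 86.3% identical to each other apart from the Gbp10 and Gbp6 pair. To 13 other tested exonic MTE2b copies their identity was 46.0% to 57.0%. None of the 6 holds GAAANNGAA or TTCNNNGAA on either strand, which occur in 6.70% and 6.36% of 1195 exonic MaLR copies of 300 to 400 bases and in 8.56% and 8.30% of 32851 promoters of RefSeq genes. The polyadenylation signal AATAAA was in 1 of the 6 (Gbp4), against 37.8% of those exonic copies. The promoters were not matched to the copies in length, so the promoter shares are not like for like. With motifs this rare and 6 copies this alike, their absence cannot set these copies apart from other exonic copies. These matches concern letters within the copies only. The Gbp9 and Gbp4 copies also lie within longer annotated transcripts of neighbouring Gbp genes, and those of Gbp10 and Gbp6 within Gm43302, so reads cannot be given to 1 gene with certainty.

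The other 5 tested MaLR copies of Gbp genes were low and none was called. The highest was an ORR1E copy in a noncoding exon of Gbp4 (chr5:105135221-105135530), with 39.7, 8.30 and 22.4 reads in CBA tumours, 7.44, 138 and 0 in Balb/c-2 tumours, 7.57, 83.5 and 15.4 in N2.1 tumours and 1.11, 0 and 0.964 in F0 tumours. It was highest in Balb/c-2 B and at 0 in Balb/c-2 C, and so overlapped F0. The rest were MLT1K in Gbp5, MLT1E3 in Gbp3, and MTD and MLT1J in introns of Gbp2, each with a mean of 4.73 to 18.3 reads over the 12 tumours.

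Interferon gamma (Ifng) and Irf1 were measured beside these copies. Irf1 differed from F0 by a log2 change of 1.97, 1.73 and 2.18 in CBA, Balb/c-2 and N2.1 tumours, all called. Ifng had log2 changes of 3.18 (adjusted p = 0.0996), 3.96 (0.0525) and 5.32 (0.00938). The summed 7 NK and cytotoxic cell markers ranged from 3887 to 9120 in CBA tumours, 6019 to 12412 in Balb/c-2 tumours, 12693 to 20197 in N2.1 tumours and 529 to 4815 in F0 tumours, and the 8 T cell markers from 1315 to 2170, 1114 to 12616, 4703 to 6457 and 144 to 2384 in the same order of groups. In N2.1 tumours 3 of 7 NK and cytotoxic markers rose (Klrk1, Prf1, Gzmb) and 1 of 8 T cell markers (Cd8a), while none passed in CBA or Balb/c-2 tumours. Of all tested genes 5% were called higher in N2.1 tumours. The 5 dendritic cell markers summed to 379.8 to 418.6 in CBA tumours, 430.6 to 1348 in Balb/c-2 tumours, 761.8 to 1793 in N2.1 tumours and 211.8 to 515.0 in F0 tumours, and 3 of 5 rose in N2.1 tumours (Zbtb46, Clec9a, Xcr1). The 5 neutrophil markers summed to 580.2 to 893.0 in CBA tumours, 1493 to 3166 in Balb/c-2 tumours, 2362 to 4324 in N2.1 tumours and 474.3 to 851.4 in F0 tumours, and 1 of the 4 tested rose in N2.1 tumours (Csf3r). The 8 macrophage and monocyte markers summed to 57491 to 128634 in CBA tumours, 91595 to 167952 in Balb/c-2 tumours, 159667 to 183703 in N2.1 tumours and 87034 to 95441 in F0 tumours, and the 7 B and plasma cell markers reached 33414 in 1 Balb/c-2 tumour against at most 1063 in F0 tumours. Other markers fell. In CBA tumours Csf1r of the macrophage list and 3 of 5 endothelium markers (Tek, Kdr, Cdh5) were called lower, beside 2.69% of all tested genes. In Balb/c-2 tumours 3 of 6 fibroblast markers (Postn, Pdgfra, Col1a2) were, beside 1.63% of all tested genes. In N2.1 tumours 1 fibroblast marker was called higher and 1 lower. The part of these cells in the values of the copies was not tested.

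The sum over all 2039 MTE2b copies followed those 6. It was 24962, 20186 and 18581 in CBA tumours, 12158, 22657 and 14584 in Balb/c-2 tumours, 28903, 24998 and 27421 in N2.1 tumours and 5815, 3879 and 5847 in F0 tumours. The log2 changes were 2.05 (adjusted p = 0.00107), 1.64 (0.00563) and 2.41 ± 0.23 (0.000175), and the sum kept its call with any 1 tumour left out and with the flow cell as a term, while edgeR did not call it in Balb/c-2 tumours (adjusted p = 0.0869). The 6 Gbp copies made up 85.0% of the MTE2b signal in N2.1 tumours and 30.0% in F0 tumours. The other 2033 copies summed to 4359, 4066 and 3990 in CBA tumours, 5673, 4907 and 4269 in Balb/c-2 tumours, 4356, 3892 and 3944 in N2.1 tumours and 3767, 3511 and 3604 in F0 tumours. Without the Gbp copies no comparison was called, at fitted log2 changes of 0.19 (adjusted p = 0.789), 0.44 (0.132) and 0.16 (0.857).

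**Figure D3:**
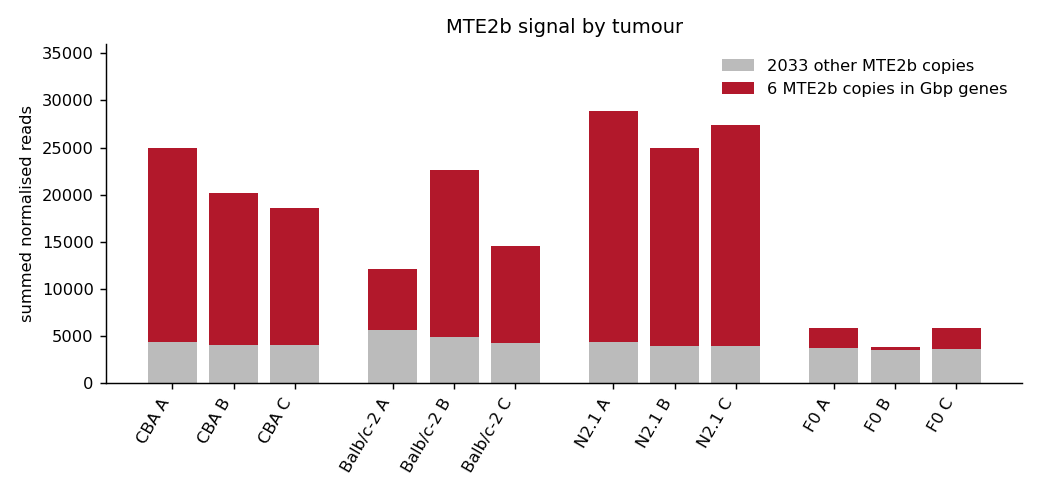
Summed normalised reads of MTE2b copies in each tumour, split into the 6 copies in Gbp genes and the 2033 others. The part from the 6 Gbp copies differs between passages far more than the rest, which stays between 3511 and 5673.

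Few other sums over whole subfamilies were called. Of 116 tested MaLR subfamilies 1 rose in CBA, 1 in Balb/c-2 and 4 in N2.1 tumours, and 1 fell in N2.1 tumours, where 0.852%, 2.47% and 2.64% of all element subfamilies were called. MTE2b was the one called in CBA and Balb/c-2 tumours. Most sums were above F0, 84 of 116 in CBA, 96 in Balb/c-2 and 85 in N2.1 tumours. Their median log2 change was 0.19, 0.50 and 0.17, beside 0.22, 0.53 and 0.16 for all element subfamilies. At an unadjusted limma p under 0.05 there were 12, 34 and 22 MaLR sums. With the flow cell as a term 1, 23 and 5 MaLR sums were called in CBA, Balb/c-2 and N2.1 tumours. In N2.1 tumours MTEb (log2 1.46 ± 0.25, adjusted p = 0.00833), MTE2a (1.3 ± 0.23, 0.00914) and MLT1L (1.14 ± 0.25, 0.025) also rose. In each of these a single exonic copy held much of the sum: 50.2% in the Irgm2 3′ UTR for MTEb, 45.1% in that of Iigp1 for MTE2a and 48.2% in that of Hpse (heparanase) for MLT1L. Irgm2 and Iigp1 encode immunity-related GTPases, another family induced by interferon gamma. Without the most abundant copy the log2 changes were 0.30 for MTEb, -0.030 for MTE2a and -0.025 for MLT1L, and none was called. The MTEb call was also lost without N2.1 A (adjusted p = 0.0639), the MTE2a call without N2.1 A or F0 B (0.0639 and 0.0591), and the MLT1L call without N2.1 A, N2.1 C, F0 A or F0 B (0.0909 to 0.152). All 3 calls were lost when scaled to library totals (0.0554, 0.0691 and 0.0691), and that of MLT1L with edgeR (0.22) and DESeq2 (0.0994).

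MTE2b~MTE2b-int, a joined LTR and internal part, fell in N2.1 tumours (log2 -1.44 ± 0.29, adjusted p = 0.0208), and 94.7% of it was 1 copy at the 3′ end of 2610008E11Rik. That copy had 447, 340 and 415 reads in CBA tumours, 485, 217 and 329 in Balb/c-2 tumours, 189, 141 and 243 in N2.1 tumours and 529, 528 and 535 in F0 tumours. The call of the sum was lost without N2.1 A, N2.1 B or any F0 tumour (0.0694 to 0.0867). The N2.1 count of subfamilies was 9 without Balb/c-2 C, 1 without N2.1 A, 3 without F0 A and 2 without F0 B. Leaving out Balb/c-2 C gave a Balb/c-2 count of 36 and a CBA count of 3, and leaving out Balb/c-2 B gave 2 for both. The most abundant subfamilies of the ORR1 groups, ORR1A3-int, ORR1B1-int, ORR1C2, ORR1D1, ORR1E and ORR1F, were not called in any comparison, nor were MTA_Mm~MTA_Mm-int, MTB, MTC, MTD and MLT1D.

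Further copies that rose in N2.1 tumours lay in genes of immune function; they were chosen after their values were seen. The MTE2a copy in the Iigp1 3′ UTR had 6514, 2578 and 5004 reads in CBA tumours, 1295, 7498 and 1017 in Balb/c-2 tumours, 9359, 9067 and 7456 in N2.1 tumours and 848, 185 and 1131 in F0 tumours. Its N2.1 mean of 8627 was above that of every Gbp copy but the one in Gbp4 (8918), and it rose in N2.1 tumours (log2 3.93 ± 0.74, adjusted p = 0.0175), as did Iigp1 (3.95). The MTEb copy in the Irgm2 3′ UTR (chr11:58221641-58221947) had 2787, 1628 and 1746 reads in CBA tumours, 1043, 1992 and 875 in Balb/c-2 tumours, 4154, 3184 and 3146 in N2.1 tumours and 571, 163 and 671 in F0 tumours. It rose in CBA (log2 2.33, adjusted p = 0.0418) and N2.1 tumours (3.12 ± 0.50, 0.00699), as did Irgm2 (2.37 and 3.07). The Apol6 copy printed above had 68.6, 59.3 and 49.8 reads in CBA tumours, 14.9, 94.3 and 4.29 in Balb/c-2 tumours, 104, 141 and 65.9 in N2.1 tumours and 5.55, 0 and 11.6 in F0 tumours. It was called in N2.1 tumours (4.52 ± 0.98, adjusted p = 0.0333), and Balb/c-2 C lay within the F0 values.

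Single MaLR copies in 3′ UTRs also rose in N2.1 tumours in Klrk1 (MLT1A0, the NKG2D receptor of NK cells; log2 3.31, adjusted p = 0.0259), Cd38 (ORR1A2, an ectoenzyme of immune cells; 2.58, 0.0271), H2-T24 (ORR1A3-int, a nonclassical MHC class I gene; 2.89, 0.0177), Samhd1 (ORR1C2, which depletes nucleotides in myeloid cells; 1.81, 0.0388) and Hpse (MLT1L; 2.52, 0.0213). The MTEa copy that ends the H2-T10 coding sequence had 495, 1137 and 357 reads in CBA tumours, 1689, 561 and 714 in Balb/c-2 tumours, 1911, 841 and 1552 in N2.1 tumours and 236, 47.7 and 303 in F0 tumours. It rose in N2.1 tumours (3.16 ± 0.67, adjusted p = 0.0284), with the doubt on shared reads given with its sequence. Near the H2-T24 copy, an ORR1A3-int copy in an intron of A930015D03Rik (chr17:36004839-36005219) had 170, 338 and 142 reads in CBA tumours, 409, 372 and 179 in Balb/c-2 tumours, 494, 306 and 524 in N2.1 tumours and 82.1, 49.6 and 40.5 in F0 tumours. It rose in Balb/c-2 (2.44 ± 0.47, 0.0275) and N2.1 tumours (2.94, 0.00682), and the Balb/c-2 call was lost without Balb/c-2 A, N2.1 C, F0 B or F0 C (0.0507 to 0.125) and with edgeR (0.0772).

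The largest rise of any named copy was an MTD copy in the 3′ UTR of Hal, histidine ammonia-lyase, which starts the breakdown of histidine (chr10:93518592-93518949). It had 29.8, 13.0 and 12.5 reads in CBA tumours, 140, 113 and 42.0 in Balb/c-2 tumours, 97.5, 71.3 and 187 in N2.1 tumours and 1.11, 0 and 0 in F0 tumours. With 1 read in all F0 tumours together, the ratios to F0 were 58.5, 294 and 361 in CBA, Balb/c-2 and N2.1 tumours, with 95% counting intervals of 10.1 to 2355, 52.4 to 11635 and 64.4 to 14288 that cover counting error only. All 3 differences were called (adjusted p = 0.0128, 0.000289 and 0.000231), as were those of Hal itself, and the N2.1 call held with any 1 tumour left out.

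Copies that fell in N2.1 tumours were fewer. An MTB_Mm copy in the 3′ UTR of Cyp51, the sterol demethylase of cholesterol synthesis (chr5:4081723-4082108), had 227, 591 and 177 reads in CBA tumours, 423, 114 and 341 in Balb/c-2 tumours, 53.9, 17.3 and 56.9 in N2.1 tumours and 364, 270 and 334 in F0 tumours. It fell in N2.1 tumours (log2 -3.05 ± 0.60, adjusted p = 0.0184), as did Cyp51 (-2.89). An MTE2a copy in the 3′ UTR of the tyrosine kinase gene Frk (chr10:34609974-34610389) had 124, 26.1 and 143 reads in CBA tumours, 33.9, 62.5 and 46.3 in Balb/c-2 tumours, 16.1, 18.3 and 28.9 in N2.1 tumours and 110, 141 and 145 in F0 tumours. It fell in N2.1 tumours (-2.62 ± 0.58, 0.036), beside -2.35 for Frk. Both calls were lost without any 1 of the N2.1 or F0 tumours (0.0567 to 0.173), and that of Frk also without Balb/c-2 A (0.0523), with the letter as a block (0.0694), with the flow cell as a term (0.0508) and with no filter (0.311). edgeR called neither (0.0637 for Cyp51 and 0.0534 for Frk).

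An MTEa copy at the 3′ end of Cdh26, a cadherin gene, was chosen after its values were seen (chr2:178487038-178487409). It had 0, 0 and 1.25 reads in CBA tumours, 0, 0 and 22.3 in Balb/c-2 tumours, 0 in each N2.1 tumour and 49.9, 73.5 and 102 in F0 tumours. It was called in CBA (adjusted p = 0.0329) and N2.1 tumours (0.0173), and in N2.1 tumours it was at least 78.8-fold lower than in F0, taking 3 reads over the 3 tumours as the floor. With 1 read in all CBA tumours the CBA level was 210-fold lower (95% counting interval 37.4 to 8342). Cdh26 itself had log2 changes of -3.30 in CBA, -3.75 in Balb/c-2 and -8.18 in N2.1 tumours, all called.

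Called copies inside genes mostly changed in the direction of those genes. Of the called copies in genes 16 of 17 in CBA, 8 of 12 in Balb/c-2 and 27 of 31 in N2.1 tumours had a gene that was itself tested, and 16, 7 and 27 of these genes changed in the same direction. The gene was called too for 9, 3 and 25 of them, where 5.04%, 3.51% and 7.91% of all tested genes were called (2.36%, 1.88% and 5% higher, 2.69%, 1.63% and 2.9% lower), and no gene was called the other way. Across 1140 tested exonic copies the Pearson correlation of the log2 change of copy and gene was 0.71, 0.65 and 0.84 in CBA, Balb/c-2 and N2.1 tumours, and across 604 intronic copies 0.50, 0.47 and 0.64. Copy and gene changed with the same sign for 70.9%, 68.1% and 79.7% of these exonic copies in the same order. For the intronic copies it was 59.8%, 62.3% and 68.9%. These are descriptions across copies of 1 set of libraries, and exonic copies may share reads with their genes.

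**Figure D4:**
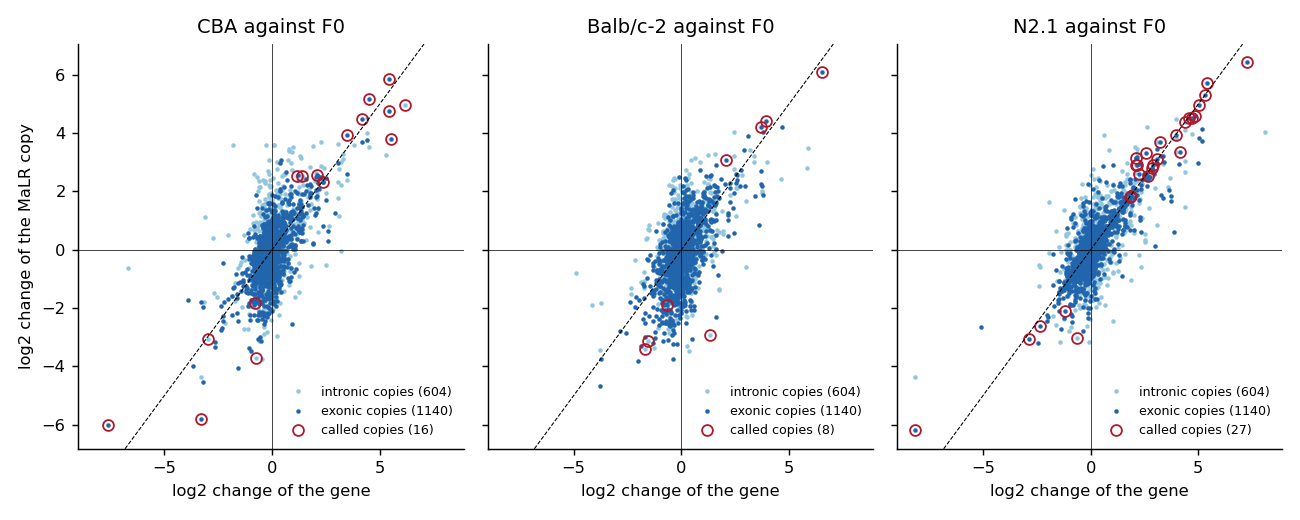
Log2 change against F0 of each tested MaLR copy (vertical) and of the gene it overlaps (horizontal) in CBA, Balb/c-2 and N2.1 tumours. Dark points are exonic and light points intronic copies, circles mark called copies, and the dashed line is an equal change. Called rises in N2.1 tumours lie near the dashed line.

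A copy was next compared with its gene directly, as the difference of their log2 values. Of 1744 MaLR copies 1 rose and 1 fell relative to the gene in CBA tumours, 2 fell in Balb/c-2 tumours and 1 rose in N2.1 tumours, where 0.0897%, 0.155% and 0.131% of all 16731 element copies were called. At an unadjusted p under 0.05 there were 115, 105 and 68. An MTA copy in an intron of Cd200r3 (chr16:44947335-44950716) fell relative to its gene in Balb/c-2 tumours by 4.23 on the log2 scale, a call that held only without Balb/c-2 A or F0 C. The N2.1 rise was an ORR1E copy in an intron of Cdh26 with 0 reads in each N2.1 tumour and 14.4, 20 and 26 in F0 tumours. At 0 it could fall no further while Cdh26 fell by 8.18 on the log2 scale, so the pseudocount sets that difference and no rise of the copy was measured. The others were low copies in or at Hddc3 and Unc13c, of which the Unc13c copy, with 3.73 to 12.5 reads in every tumour, stayed level while Unc13c fell by 6.67 in CBA tumours on the log2 scale. The CBA count of 2 was 1 without CBA B, CBA C, F0 A or F0 C and 0 without F0 B. The Balb/c-2 count of 2 was 1 without CBA A, CBA C, Balb/c-2 C, F0 A or F0 B, and 4 when Balb/c-2 B was left out. The N2.1 count was 1 without Balb/c-2 B, Balb/c-2 C, N2.1 B or F0 C and 0 without any other tumour.

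Joined LTR and internal copies of the youngest MT group, MTA_Mm~MTA_Mm-int, made up most called falls in Balb/c-2 tumours. MTA copies were 1 of the 13 rises and 6 of the 7 falls there, 2 of 17 rises and 3 of 10 falls in CBA tumours, and 2 of 39 rises and 3 of 9 falls in N2.1 tumours. Of the 2241 tested MaLR copies 9.19% (206) were MTA copies, and 0.281%, 0.222% and 0.306% of all element copies fell in CBA, Balb/c-2 and N2.1 tumours. The copy in an intron of Arhgap24 (chr5:102699236-102702616) had 13.5, 29.6 and 12.5 reads in CBA tumours, 52.1, 10.3 and 32.6 in Balb/c-2 tumours, 11.4, 61.1 and 33.4 in N2.1 tumours and 233, 185 and 315 in F0 tumours. All tumours of the other passages lay under every F0 tumour. The log2 changes were -3.72 ± 0.67 (adjusted p = 0.0181), -3.14 (0.0461) and -3.01 (0.0378), while Arhgap24 was not called, at -0.76, -1.56 and -0.64. The calls were lost without CBA A, CBA C or any F0 tumour, the Balb/c-2 call also without Balb/c-2 A or C or N2.1 C and the N2.1 call also without N2.1 A or C (0.0538 to 0.213). None passed with edgeR (0.0503, 0.107 and 0.0849), nor the N2.1 call with the letter as a block (0.0912).

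Another MTA copy with that pattern lay outside genes, 15652 bases from Tmem17 (chr11:22534886-22536773), and was chosen after its values were seen. It had 6.32, 7.12 and 6.22 reads in CBA tumours, 11.6, 3.73 and 6 in Balb/c-2 tumours, 5.68, 11.2 and 8.13 in N2.1 tumours and 71.0, 53.4 and 107 in F0 tumours. The log2 changes were -3.32 (adjusted p = 0.0164), -3.33 (0.0169) and -3.05 (0.0176). The sixth MTA copy that fell in Balb/c-2 tumours, in an intron of 9130204K15Rik, had log2 changes of -3.92 (0.0494) in CBA and -4.31 (0.0363) in Balb/c-2 tumours.

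An MTA_Mm copy in an intron of Plin2, which coats lipid droplets (chr4:86667135-86667529), moved the other way and was also chosen after its values were seen. It had 143, 102 and 71.0 reads in CBA tumours, 73.6, 33.6 and 72.0 in Balb/c-2 tumours, 223, 59.1 and 174 in N2.1 tumours and 17.8, 10.5 and 24.1 in F0 tumours. It was called in CBA (log2 2.54, adjusted p = 0.0482) and N2.1 tumours (2.92, 0.0175), and Plin2 in N2.1 tumours (2.09, 0.0049). The summed 5 adipocyte markers ranged from 337 to 693 in CBA tumours, 1917 to 33484 in Balb/c-2 tumours, 7164 to 13344 in N2.1 tumours and 563 to 1115 in F0 tumours, and their part in these values was not tested.

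Another 3 MTA copies had their lowest values in Balb/c-2 tumours and varied together. The copy in an intron of Mertk, a receptor for apoptotic cells on macrophages (chr2:128772619-128774506), had 73.1, 130 and 128 reads in CBA tumours, 67.8, 10.3 and 34.3 in Balb/c-2 tumours, 87.1, 202 and 199 in N2.1 tumours and 327, 245 and 410 in F0 tumours. The Cd200r3 copy had 179, 323 and 213 reads in CBA tumours, 204, 37.3 and 101 in Balb/c-2 tumours, 299, 598 and 582 in N2.1 tumours and 721, 520 and 923 in F0 tumours. The third, 43526 bases from Gm25796 (chr3:45861424-45863311), had 21.7, 52.2 and 48.6 reads in CBA tumours, 28.9, 7.47 and 17.2 in Balb/c-2 tumours, 58.7, 73.3 and 66.8 in N2.1 tumours and 103, 85.9 and 131 in F0 tumours. Balb/c-2 B was the lowest tumour for each, and F0 C the highest. They fell in Balb/c-2 tumours, with log2 changes of -3.41, -2.92 and -2.67 (adjusted p = 0.0149, 0.0228 and 0.03) and were not called in CBA or N2.1 tumours. Over the 12 tumours the ratio of any 2 of them varied by 1.98-fold to 2.45-fold between its lowest and highest value, and reads of like copies may be shared. Mertk itself was not called (-1.87, -1.69 and 0.31 in CBA, Balb/c-2 and N2.1 tumours). All 3 calls were lost without F0 A or F0 C, that of Cd200r3 and the copy near Gm25796 also without Balb/c-2 C, and the last also without N2.1 A, N2.1 C or F0 B (0.0529 to 0.121). None passed with edgeR (0.0539, 0.0764 and 0.0781).

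**Figure D5:**
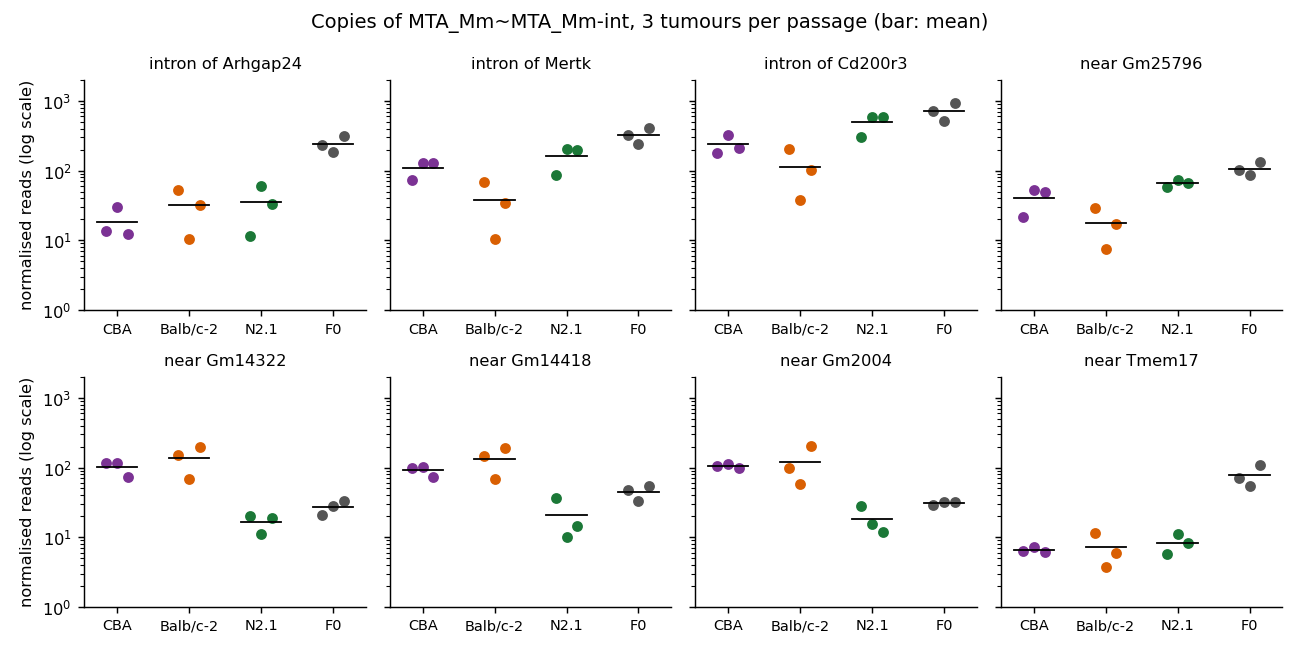
Normalised reads (log scale) of 8 MTA_Mm~MTA_Mm-int copies in each tumour, with a bar at the mean of each passage. The Arhgap24 copy and the copy near Tmem17 are highest in F0 tumours, and the 3 copies near Gm14322, Gm14418 and Gm2004 are higher in CBA and Balb/c-2 tumours than in N2.1 and F0 tumours.

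Outside genes 10 MaLR copies were called in CBA tumours, 8 in Balb/c-2 and 17 in N2.1 tumours, and 4, 2 and 8 of these lay within 5 kb of a gene. An MTD copy 7251 bases from 4930474B08Rik (chr1:90862880-90863332) had 58.6, 24.9 and 62.3 reads in CBA tumours, 19.0, 95.2 and 43.7 in Balb/c-2 tumours, 88.0, 149 and 104 in N2.1 tumours and 7.77, 5.72 and 9.64 in F0 tumours. It rose in N2.1 tumours (log2 3.71 ± 0.59, adjusted p = 0.00697), and all tumours of the other passages were above every F0 tumour. An ORR1A2 copy 1693 bases from Fcrls, a gene of microglia and other macrophages (chr3:87248743-87249065), had 0, 7.12 and 3.73 reads in CBA tumours, 28.9, 0.933 and 1.72 in Balb/c-2 tumours, 0, 1.02 and 9.93 in N2.1 tumours and 115, 294 and 43.4 in F0 tumours. It fell in N2.1 tumours (-5.36 ± 1.22, 0.0408), a call lost without CBA C or any N2.1 or F0 tumour (0.0584 to 0.248), with the letter as a block (0.103) and with edgeR (0.143). An MLT1C copy 693 bases downstream of Col6a2, a chain of collagen VI, fell too (-2.54 ± 0.49, 0.0176; 0.0725 to 0.0872 without N2.1 A, B or C or F0 A or B; 0.405 with no filter).

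Other copies outside genes were chosen after their values were seen. An MTC-int copy 6102 bases downstream of Ly96, the co-receptor of Tlr4 (chr1:16715713-16716484), had 16.2, 20.2 and 34.9 reads in CBA tumours, 19.8, 31.7 and 23.2 in Balb/c-2 tumours, 77.6, 34.6 and 56.9 in N2.1 tumours and 1.11, 2.86 and 0 in F0 tumours. Its log2 changes were 3.55 (adjusted p = 0.0164), 3.66 (0.0145) and 4.76 (0.00229). An MTEa copy 6078 bases upstream of Gm29599 (chr1:128744532-128744848) had 112, 45.1 and 103 reads in CBA tumours, 69.4, 121 and 93.5 in Balb/c-2 tumours, 74.8, 41.8 and 82.2 in N2.1 tumours and 9.99, 7.63 and 11.6 in F0 tumours. Here Balb/c-2 tumours had the highest mean, and the log2 changes were 2.94 (0.0122), 3.14 (0.00721) and 2.61 (0.0154). An MLT1I copy 7634 bases downstream of Gm49436 (chr15:77358154-77358264) had 3 reads in all F0 tumours together, and its level was 49.5-fold higher in CBA (95% counting interval 16.6 to 243), 22.2-fold in Balb/c-2 (7.33 to 110) and 77.9-fold in N2.1 tumours (26.3 to 380).

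Summed by subfamily outside genes, 2 of 103 MaLR sums rose in N2.1 tumours and none was called in CBA or Balb/c-2 tumours by limma, where 0.273%, 0.546% and 1.60% of all subfamily sums by place were called in CBA, Balb/c-2 and N2.1 tumours. At an unadjusted p under 0.05 there were 9, 16 and 11, DESeq2 on recovered reads called 2, 1 and 4, and edgeR 0, 0 and 2. With the flow cell as a term 0, 46 and 3 sums were called, and 94 of the 103 Balb/c-2 sums were above F0, at a median log2 change of 0.90 beside 0.61 for all subfamily sums by place. MLT1-int (log2 3.7 ± 0.64, adjusted p = 0.0112) drew 97.0% of its signal from 1 copy at chr16:78232605-78232892, 7366 bases upstream of Gm25916. That copy had 117, 87.8 and 77.2 reads in CBA tumours, 75.2, 129 and 45.5 in Balb/c-2 tumours, 108, 173 and 198 in N2.1 tumours and 20, 0 and 16.4 in F0 tumours. MTB~MTB-int (2.26 ± 0.35, 0.00633) drew 70.9% from 1 copy at chr15:64068216-64069293, 7738 bases upstream of Fam49b. Its reads were 122, 190 and 89.6 in CBA tumours, 211, 171 and 365 in Balb/c-2 tumours, 697, 441 and 573 in N2.1 tumours and 93.2, 47.7 and 92.5 in F0 tumours. In both, the N2.1 and F0 tumours did not overlap, and without the most abundant copy of each sum no sum was called. The N2.1 count was 4 without Balb/c-2 C, 0 without N2.1 A and 1 without N2.1 C, the Balb/c-2 count 10 without Balb/c-2 C and 1 without Balb/c-2 B, and the CBA count 2 without Balb/c-2 C and 1 without Balb/c-2 A or B.

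Balb/c-2 tumours were also set against N2.1 tumours, with 8 MaLR copies higher and 3 lower, where 0.34% of all element copies were called (0.207% higher, 0.133% lower). All 8 rises lay outside genes, and 5 of them were MTA copies between the predicted genes Gm2004 and Gm14322 on chromosome 2. The copy 1229 bases downstream of Gm14322 (chr2:177771701-177773327) had 150, 68.1 and 194 reads in Balb/c-2 tumours and 19.9, 11.2 and 19.0 in N2.1 tumours, beside 115, 115 and 72.2 in CBA tumours and 21.1, 27.7 and 32.8 in F0 tumours. Its log2 change from N2.1 was 2.88 ± 0.49 (adjusted p = 0.017), and copies near Gm14418 (2.73, 0.0436) and Gm2004 (2.53, 0.0476) were called too. The ratio of any 2 of these 3 copies varied by 2.31-fold to 2.97-fold over the 12 tumours, and reads of like copies may be shared. The copy 1290 bases downstream of Gm14412 (chr2:177311603-177313230) was lower, with 60.3, 28.0 and 54.0 reads in Balb/c-2 tumours and 1.89, 0 and 2.71 in N2.1 tumours, beside 68.6, 19.0 and 59.8 in CBA tumours and 0, 1.91 and 1.93 in F0 tumours (4.39, 0.026). An ORR1B2 copy at chr8:107677549-107677944 had 48.8, 51.3 and 112 reads in Balb/c-2 tumours and 0 in each N2.1 tumour, beside 117, 70 and 83.4 in CBA tumours and 1.11, 3.82 and 5.78 in F0 tumours. It was at least 74.0-fold higher in Balb/c-2 than in N2.1 tumours, with 3 reads over the 3 tumours as the floor (adjusted p = 0.000712).

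The 3 falls were in MTE copies. The AC166110.3 copy printed above had 5.79, 8.40 and 0.858 reads in Balb/c-2 tumours and 120, 160 and 127 in N2.1 tumours, beside 17.1, 16.6 and 18.7 in CBA tumours and 8.88, 8.59 and 4.82 in F0 tumours. Its log2 change was -4.79 ± 0.62 (adjusted p = 0.00263) for Balb/c-2 against N2.1, and 4.05 (0.00601) for N2.1 against F0. Another MTE2a copy of chromosome 17, 2731 bases downstream of Gpr31b (chr17:13048149-13048283), had 0, 9.33 and 2.57 reads in Balb/c-2 tumours and 118, 107 and 112 in N2.1 tumours, beside 14.4, 29.6 and 7.47 in CBA tumours and 4.44, 11.5 and 3.85 in F0 tumours (-5.09 ± 0.81, 0.0113). An MTE2b copy in the 3′ UTR of Tmem221 (chr8:71554364-71554697) had 46.3, 29.9 and 15.4 reads in Balb/c-2 tumours and 359, 177 and 246 in N2.1 tumours (-3.12 ± 0.47, 0.00792), as its gene did (-3.25). No tumour of 1 passage overlapped the other for these 3 copies. The identity of both MTE2a copies to each other was not measured, and their reads may be shared.

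The count of 11 in that comparison was 3 when Balb/c-2 A was left out, 153 when B was and 5 when C was, and 4 without each N2.1 tumour in turn or with the flow cell as a term, and 7 with the letter as a block. Among the named copies, the AC166110.3 call held without any 1 tumour but not with the flow cell as a term (adjusted p = 0.142), that of Tmem221 was lost without N2.1 A or C (0.0727 and 0.059), that near Gpr31b without Balb/c-2 A or any N2.1 tumour (0.0501 to 0.0766), and that near Gm14322 without Balb/c-2 A or C or any N2.1 tumour (0.0675 to 0.107). The calls near Gm14418 and Gm2004 were lost without CBA A or C, Balb/c-2 A or C, N2.1 B or C, or F0 A or C, and the last also without N2.1 A or F0 B (0.061 to 0.265). With the flow cell as a term the calls of Tmem221 (0.279) and those near Gm14322 (0.182), Gm14418 (0.279) and Gm2004 (0.356) were lost too. With no filter the calls near Gm14322, Gm14418 and Gm2004 were lost (0.236 to 0.502), the block ended those near Gm14418 (0.0617) and Gm2004 (0.116), and edgeR ended those near Gpr31b (0.0567), Gm14418 (0.127) and Gm2004 (0.094).

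CBA tumours differed from Balb/c-2 tumours in 1 MaLR copy, where 0.069% of all element copies were called (0.00986% higher, 0.0592% lower), and this count was 12 without Balb/c-2 B. It is the Ppfia4 copy printed above, which begins 9 bases before the annotated transcript start. It had 0 reads in each CBA tumour, 61.2, 36.4 and 20.6 in Balb/c-2 tumours, 92.7, 110 and 81.3 in N2.1 tumours and 68.8, 68.7 and 52.0 in F0 tumours. CBA tumours were thus at least 36.2-fold lower than Balb/c-2 tumours (adjusted p = 0.000999) and at least 58.0-fold lower than F0 tumours (0.000111), with 3 reads over the 3 CBA tumours as the floor. The call against F0 held without any 1 tumour but not with the flow cell as a term (0.134). Ppfia4 itself fell by 7.26 and 7.6 on the log2 scale in the same comparisons.

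An ORR1F copy in the 3′ UTR of Tm4sf1, a tetraspanin-like surface protein (chr3:57286149-57286453), was lower in CBA and Balb/c-2 tumours. It had 46.9, 62.9 and 71.0 reads in CBA tumours, 43.0, 55.1 and 77.2 in Balb/c-2 tumours, 154, 158 and 137 in N2.1 tumours and 198, 196 and 248 in F0 tumours. The log2 change from F0 was -1.82 ± 0.37 (adjusted p = 0.0329) in CBA and -1.88 ± 0.37 (0.031) in Balb/c-2 tumours, while Tm4sf1 was not called (-0.81 and -0.67). Both calls were lost without N2.1 A, N2.1 C or any F0 tumour, the CBA call also without any CBA tumour and the Balb/c-2 call without Balb/c-2 A (0.0558 to 0.163). With no filter neither passed (0.865 and 0.523), and edgeR did not call the CBA difference (0.0534).

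Of the 5 most abundant MaLR copies the one in Gbp4 rose in all 3 comparisons with F0, as given above, and the other 4 were not called. An ORR1B1-int copy in Gpx4, the lipid peroxide-reducing glutathione peroxidase (chr10:80055762-80055951), had 6468, 13901 and 5495 reads in CBA tumours, 10522, 3579 and 19265 in Balb/c-2 tumours, 7547, 3529 and 6246 in N2.1 tumours and 6557, 4319 and 7721 in F0 tumours. Its values overlapped between all passages. An MLT1D copy in the 3′ UTR of Tnfaip2 (chr12:111454272-111454595) had 4712, 8375 and 3627 reads in CBA tumours, 4700, 4809 and 3857 in Balb/c-2 tumours, 11922, 7761 and 10170 in N2.1 tumours and 5525, 4061 and 5713 in F0 tumours (N2.1 against F0 log2 0.96, adjusted p = 0.258). All N2.1 tumours were above every F0 tumour for it, as they were for the H2-T22 copy (log2 2.39 in N2.1 tumours, adjusted p = 0.0764). For an MLT1A1 copy in the 3′ UTR of Scd2, a fatty acid desaturase, they were below every F0 tumour (-0.62, 0.641).

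Genes of repeat silencing and germline genes were read beside the copies. Of 23 silencing genes 21 were in the table, and in N2.1 tumours Uhrf1 and Hells, which act in the upkeep of DNA methylation, fell by 0.90 and 1.09 on the log2 scale (adjusted p = 0.0435 and 0.0373). These 2 of 21 stand beside 2.9% of all tested genes called lower in N2.1 tumours. None passed in CBA or Balb/c-2 tumours. The 8 oocyte and germline markers summed to 44.2 to 102 reads in CBA tumours, 36.4 to 150 in Balb/c-2 tumours, 31.6 to 68.1 in N2.1 tumours and 55.3 to 101 in F0 tumours, and none of the 3 tested was called.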

How the data were processed

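Poly(A) RNA of 12 tumours of YUMM1.7 cells was sequenced, 3 tumours for each of 4 passages, and groups were taken from the labels. The submitters' processing notes name featureCounts 1.5.0-p3, HISAT2 2.0.5, the build mm10 and StringTie 1.3.3b. The sources used here do not say how strand and reads with several matches were handled. The deposited table holds a signal made by the authors, reads per repeat copy or gene divided by a size factor for each library. Whole reads were recovered from these values (100% within 0.1 reads), with 34721735 to 59404254 reads per library and 1 read worth 0.8266 to 1.2451 units. Because the values were not raw counts, limma 3.58.1 (R 4.3.3, trend and robust) on log2(value + 1) was used, over all 12 tumours with 8 residual degrees of freedom, for features that reached 10 in 3 or more tumours, with Benjamini-Hochberg adjustment over all features of each fit. Every adjusted p given is from limma unless another tool is named, an error after ± beside a log2 change is its SE, and fold changes on this scale understate the change of low copies. edgeR 4.0.16 and DESeq2 1.42.0 on recovered reads, other settings and each tumour left out were alternatives. Copies were placed on GENCODE M21 genes with bedtools 2.31.1 by an overlap of at least 1 base without strand, so reads of overlapping or antisense genes cannot be told apart. The fits and the permutation test were tested on simulated data.

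The named copies are, per comparison, the 5 largest rises and falls among called copies whose groups do not overlap and whose higher mean is at least 100, with 1 copy per gene or locus, the 3 largest outside genes against F0, tested copies in Gbp genes, the 5 most abundant, and called copies with a transcript start; for copies changed relative to their gene the same limit of 100 held. Members and lists were chosen with earlier results of these data known. The labels say that the letters are different tumours, and p-values measure the spread between these tumours. The labels give no pairing by letter. Deviations from the passage means of same-letter tumours correlated at 0.148 to 0.516 between N2.1 and F0 (3 pairs) and at 0.177 to 0.640 between Balb/c-2 and N2.1 (3 pairs), over 0.1 in every pair, so values with the letter as a block stand beside the results of these comparisons that it changed. Same-letter pairs of Balb/c-2 and F0 were at 0.0946 to 0.468, and all 9 same-letter pairs with CBA were negative (-0.559 to -0.0649). Pairs of unlike letters ran from -0.412 to 0.294 between N2.1 and F0 and from -0.503 to 0.396 between Balb/c-2 and N2.1. Over all passages the mean was 0.0074 for the 18 same-letter pairs and -0.0059 for pairs of unlike letters. Promoters scanned for motifs are from RefSeq.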

Additional observations from a re-analysis of the deposited data

How the results depend on the processing

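Of copies called in CBA against F0 (27), the replicate block left 13, edgeR 9, DESeq2 gave 78 and the flow cell as a term 0. In Balb/c-2 against F0 (20) the same settings gave 10, 6, 83 and 1, in N2.1 against F0 (48) the block 29, edgeR 21 and DESeq2 107, and in Balb/c-2 against N2.1 (11) the block 7, edgeR 5, DESeq2 56 and the flow cell 4. In CBA against Balb/c-2 (1) a pseudocount of 5 gave 3, no filter 2 and DESeq2 16. Leaving out 1 tumour gave 3 to 53, 8 to 97, 7 to 77, 3 to 153 and 1 to 12 in these 5 comparisons.

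Of subfamily sums, CBA against F0 (1) became 3 with DESeq2 and 0 without the Gbp copies (1 to 3 with a tumour left out). Balb/c-2 against F0 (1) became 23 with the flow cell, 0 with edgeR, 2 with DESeq2, 0 without the Gbp copies and 2 without each most abundant copy (1 to 36). N2.1 against F0 (5) became 2 when scaled to library totals and 1 without each most abundant copy (1 to 9), where MTE2a (-0.030) and MLT1L (-0.025) changed sign. Of sums outside genes, CBA (0) became 2 with DESeq2 (0 to 2), Balb/c-2 (0) 46 with the flow cell and 1 with DESeq2 (0 to 10), and N2.1 (2) 4 with DESeq2, 0 without each most abundant copy and 4 when only copies over 5 kb from genes were kept (0 to 4). Copies changed relative to their gene went to 7, 5 and 8 with a pseudocount of 5 in CBA, Balb/c-2 and N2.1 tumours, to 401, 186 and 171 with no filter and to 0 in each with the flow cell, and the block left 1 in CBA and 1 in Balb/c-2 tumours (0 to 3, 1 to 4 and 0 to 1 with a tumour left out). The p of the MaLR share ran from 0.0499 to 0.358 with a tumour left out, by the exact permutation test. The cause of these differences was not tested.

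The replicate block ended 16 of 46 named calls, and its values stand in the report where the letters met the pairing check given with the processing, N2.1 against F0 and Balb/c-2 against N2.1. The settings without the Gbp copies and without the most abundant copy were chosen after seeing the data. Of 46 named results 5 held under every alternative, and edgeR ended 24 of the 45 it covered, the MTE2b sum in Balb/c-2 tumours among them. Low copies limit precision, since a value of 10 is about 10 reads.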
